A study of Rattus norvegicus with 28 samples.

Results

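The genes described here are those that were enriched in the nucleus accumbens (NAc) over the medial prefrontal cortex (mPFC), and they numbered 115 of the 15635 genes measured. They were chosen from the 14 libraries that carried wild-type histone H3.3, by their level in CPM (a gene's count divided by the total count of the library, times 1000000). A gene entered the list when its mean in the 7 NAc H3.3WT libraries was at least 10 CPM and its log2 ratio of NAc over mPFC was at least 2, a 4-fold difference, with 0.5 CPM added to both means. Another 7 genes met both conditions but were left out by the rule and are not described. Because the H3.3WT libraries chose the members, their levels in those libraries are a description and not a test of enrichment. The 3 members nearest the level bound averaged 11.01, 11.6 and 11.8 CPM in NAc H3.3WT, and the 3 genes just below it averaged 9.89, 8.78 and 8.74 CPM. The 3 members nearest the ratio bound had log2 ratios of 2.001, 2.01 and 2.01, and the 3 genes just below it had 1.9996, 1.97 and 1.97.

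The animals were male Sprague-Dawley rats, young adults of 200 to 250 g, that had taken cocaine by self-administration on 10 days of extended access. A lentivirus built on the pCDH vector was then injected bilaterally into NAc or mPFC, and it carried H3.3WT or H3.3Q5A, in which the glutamine at position 5 is replaced by alanine. All 4 groups thus shared the cocaine history, the surgery and an added H3.3 gene, then a stretch of 30 days in which the virus was expressed and no cocaine was given, and a test of cue-seeking. Each group held 7 bulk RNA libraries, which are named by the replicate number of their titles; the titles also carry a mark, P1 or P2, that the labels do not explain. Neither the share of transduced cells nor the promoter of the vector is given in the sources used here.

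The NAc is the ventral part of the striatum. Most of its neurons are GABAergic medium spiny projection neurons that receive dense dopamine input, whereas the principal neurons of the mPFC are glutamatergic pyramidal cells. Genes enriched in striatum over cortex are known to include dopamine receptors, components of dopamine and cyclic AMP signalling, striatal neuropeptides and transcription factors of the projection neurons. H3.3 is a histone variant deposited outside DNA replication, and its glutamine 5 can carry dopamine, a modification that the Q5A form cannot accept. The comparison of H3.3Q5A with H3.3WT asks how gene expression changes when the added H3.3 lacks that site. The deposited table names genes by Ensembl ID alone and 0 of its IDs matched the reference gene table, so the 115 members cannot be assigned to these classes here, and the labelled tissues cannot be checked against marker genes.

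Libraries held 15448673 to 51714324 counts. A pair of mPFC libraries, H3.3Q5A replicate 34 and H3.3WT replicate 11, stood apart from their groups in the member genes. So did a pair of NAc libraries, H3.3WT replicate 17 and H3.3Q5A replicate 3. Several results that rest on these libraries are given with and without them. As bulk samples these libraries cannot separate fewer cells of a type from less RNA per cell.

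In NAc H3.3WT the members spanned a wide range of abundance. Their mean levels ran from 11.01 to 2811 CPM with a median of 54.0 CPM, 34 of them were at 100 CPM or more and 11 at 500 CPM or more. Together the 115 genes took 1.93 ± 0.40% (SD, n = 7) of all counts in the NAc libraries with H3.3WT, and 0.265 ± 0.027% in the corresponding mPFC libraries. The 10 most abundant members made up 51.5% of the summed CPM of the list in NAc H3.3WT, and the most abundant one alone made up 14.6%. CPM depends on transcript length as well as on abundance, so these ranks order read output and not molecules.

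The most abundant member, ENSRNOG00000028404, ranged over the NAc H3.3WT libraries from 2209 CPM to 4878 CPM with a median of 2565 CPM. In NAc H3.3Q5A it ranged from 2475 to 10151 CPM with a median of 2850.3 CPM. The highest value of each NAc group came from replicates 17 and 3, the next being 2897 CPM in H3.3WT and 3754 CPM in H3.3Q5A. In mPFC it lay between 108 and 278 CPM with H3.3WT and between 107 and 507 CPM with H3.3Q5A, so that no mPFC library reached the lowest NAc library.

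The second most abundant, ENSRNOG00000002229, was steadier. With H3.3WT its level was 1235 ± 179 CPM (SD, n = 7) in NAc against 200.5 ± 29.7 CPM in mPFC. With H3.3Q5A it was 1513 ± 284 CPM in NAc against 209 ± 58.5 CPM in mPFC. Its lowest NAc library, at 1045 CPM, was above its highest mPFC library, at 342 CPM, which was H3.3Q5A replicate 34.

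At the other end of the mPFC range, 12 members averaged under 1 CPM in mPFC H3.3WT. The member with the largest ratio, ENSRNOG00000027658, ranged from 24.9 to 79.6 CPM in NAc H3.3WT and from 0.234 to 1.49 CPM in mPFC H3.3WT. ENSRNOG00000049580 came next, with 154 ± 25.8 CPM (SD, n = 7) in the NAc libraries and 2.62 ± 2.15 CPM in the mPFC libraries of H3.3WT. Within mPFC H3.3WT, replicate 11 held the highest value of both genes, 1.49 and 7.32 CPM. Of the 115 members, 44 were nevertheless at 10 CPM or more in mPFC H3.3WT, and the median member was at 7.37 CPM there. The list thus also holds genes that were readily measured in mPFC.

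The region difference was tested in the 14 H3.3Q5A libraries, which the rule had not used. All 115 members had a fold change above 0 there, that is, higher in NAc, as did 50.5% of all genes. All 115 were called by the edgeR quasi-likelihood test over 15575 genes, against 5.82% of all genes, where a call asked for a Benjamini-Hochberg adjusted p below 0.05 together with a log2 difference of 1 or more. Adjusted p-values of the members ran from 1.8e-10 to 0.0335, and the fitted log2 fold changes from 1.46 to 7.67 with a median of 2.97. In 109 members every NAc H3.3Q5A library lay above every mPFC H3.3Q5A library, which held for 10.5% of all genes. The call held for 114 members without NAc H3.3Q5A replicate 3 and mPFC H3.3Q5A replicate 34 together, and for 113 among P1 and 113 among P2 libraries alone.

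For ENSRNOG00000027658 the 7 NAc H3.3Q5A libraries were at 47.3 to 89.3 CPM and the 7 mPFC H3.3Q5A libraries at 0.033 to 1.70 CPM, a log2 fold change of 6.96 (SE 0.42, edgeR adjusted p = 1.3e-08). ENSRNOG00000049580 was at 140.2 to 432 CPM in NAc H3.3Q5A. Its mPFC H3.3Q5A values were 1.44 to 3.34 CPM in 6 libraries and 20.5 CPM in replicate 34, and the fitted log2 fold change was 5.64 (SE 0.68, edgeR adjusted p = 7.9e-06). The groups did not overlap for either gene.

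The size of the difference also carried over to these libraries. The median log2 ratio of group means was 2.66 with H3.3WT, where it was selected, and 2.85 with H3.3Q5A, where it ranged from 1.41 to 6.08. With H3.3Q5A, 107 of the 115 members again reached a level of 10 CPM and a ratio of 2, which 131 genes did in all, so the shared genes made up 93.0% of the members and 81.7% of the H3.3Q5A list. Of the 8 that did not, all missed the ratio and 1 also missed the level. The count of 107 was not recomputed without NAc H3.3Q5A replicate 3, and some members rest on that library. ENSRNOG00000035476, for example, averaged 24.4 CPM in NAc H3.3Q5A with 118 CPM in replicate 3 and a group median of 8.44 CPM. The members with an H3.3WT ratio of 2 to 3, which numbered 74, had a median H3.3Q5A ratio of 2.51, the 20 with a ratio of 3 to 4 one of 3.45, and the 21 above 4 one of 4.47.

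**Figure D1:**
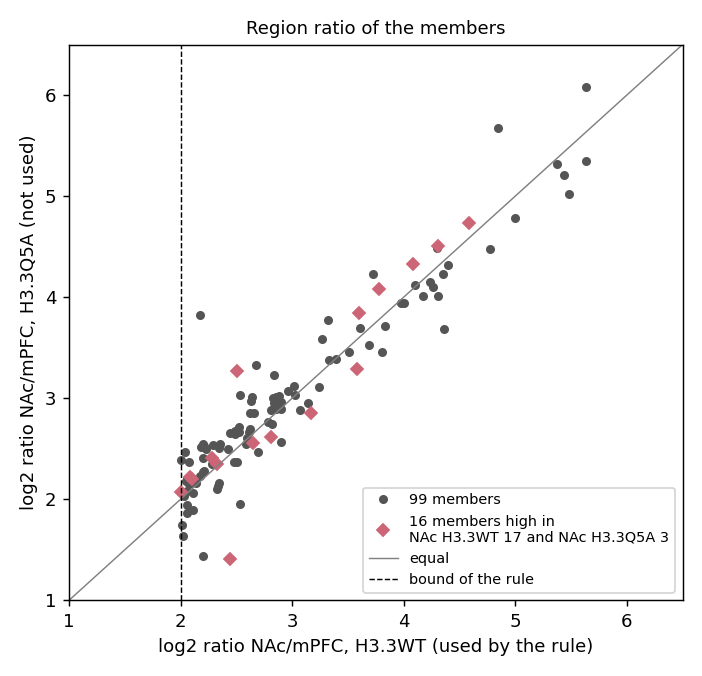
Log2 ratio of the NAc mean over the mPFC mean (0.5 CPM added to both) with H3.3WT, which chose the members, on the x axis, and with H3.3Q5A on the y axis, 1 point per member. Most points lie near the line of equal ratios, and the lowest H3.3Q5A ratio is 1.41.

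Among the members, 16 shared a pattern over the NAc libraries that the other 99 did not show. In these 16, NAc H3.3WT replicate 17 was at least 2-fold over the median of the other 6 H3.3WT libraries and NAc H3.3Q5A replicate 3 at least 2-fold over the median of the other 6 H3.3Q5A libraries. The excess in replicate 17 ran from 2.01-fold to 13.98-fold with a median of 4.39-fold, and that in replicate 3 from 2.11-fold to 13.6-fold with a median of 3.95-fold. The split was made after the values had been seen, and the rule itself used replicate 17, with 8 of the 16 meeting the rule only when that library was included, so it carries no test. Replicate 17 is a P2 library and replicate 3 a P1 library, and they carried different viruses. In replicate 3, which the rule had not used, 27 members were at least 2-fold over the median of the other 6, 23.5% of the list, against 1.91% of the 10267 genes at 10 CPM or more in NAc H3.3WT. This is also a description, since members chosen through replicate 17 are among the 27. Both excesses together were seen in 119 of those 10267 genes, 1.16%. The 16 are 13.9% of the list and 13.4% of the 119, so most genes with the pattern lie outside the list. Replicate 17 was also at least 2-fold under the median of the other 6 in 7.19% of those genes and 6.96% of the members.

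ENSRNOG00000035476, the member with the largest coefficient of variation (CV, the SD as a percentage of the mean) in NAc H3.3WT, belongs to the 16. Its level was 112 CPM in replicate 17 and 4.97 to 9.73 CPM in the other 6 H3.3WT libraries. With H3.3Q5A it was 118 CPM in replicate 3, 15.8 CPM in replicate 7 and 4.70 to 8.56 CPM in the other 5. In mPFC it lay between 1.44 and 7.76 CPM over all 14 libraries. All of its H3.3WT libraries but replicate 17 were below 10 CPM, and the mean of 22.7 CPM that brought it into the list falls to 7.74 CPM without that library. ENSRNOG00000028404, described above, is another of the 16.

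Averaged over the 16 genes, the level in log2(CPM + 0.5) was 8.31 in NAc H3.3WT replicate 17 and 5.80 to 6.35 in the other 6 libraries of its group. It was 8.50 in NAc H3.3Q5A replicate 3 and 5.88 to 6.51 in the other 6. The other 99 members were at 5.85 in replicate 17, inside the 5.72 to 6.20 of its group, and at 6.35 in replicate 3, where the next library was at 6.21. The 16 genes took 52.6% of the summed CPM of the list in replicate 17 and 50.3% in replicate 3, against 23.9% over the other 6 NAc H3.3WT libraries.

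The pair of mPFC libraries with high member levels showed the reverse split. The 99 members averaged 3.93 in mPFC H3.3Q5A replicate 34, and 2.76 to 3.02 in the other 6 libraries of its group. They averaged 3.32 in mPFC H3.3WT replicate 11 and 2.76 to 2.94 in the other 6. For the 16 genes, replicate 34 was at 3.99, as was replicate 37, and replicate 11 was at 3.67 within a group range of 3.54 to 3.95. Replicate 34 held the highest value of its group for 84 of the 99 genes and for 5 of the 16, and its median log2 excess over the mean of the other 6 was 1.01 for the 99 and −0.03 for the 16. The mPFC-enriched genes found by the mirrored rule, 95 in number, were at 5.34 in replicate 34 and at 5.59 to 5.96 in the other mPFC H3.3Q5A libraries. In replicate 11 they were at 5.65 within a group range of 5.43 to 6.14. Their part in the levels of the members was not tested.

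**Figure D2:**
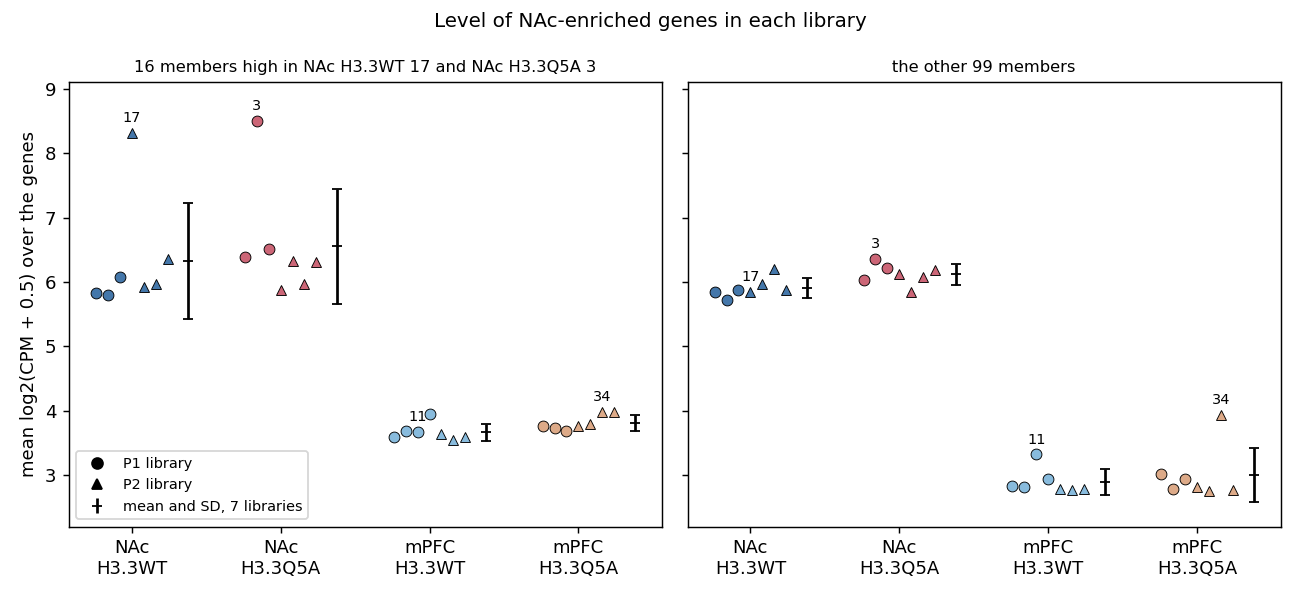
Mean log2(CPM + 0.5) over 16 members (left) and over the other 99 (right) in each of 28 libraries, by region and virus, with the group mean and SD of 7 libraries. On the left NAc H3.3WT 17 and NAc H3.3Q5A 3 stand at 8.31 and 8.50, and on the right mPFC H3.3Q5A 34 stands at 3.93 and mPFC H3.3WT 11 at 3.32.

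The choice of members itself depended on replicate 17. With that library left out of the rule, 109 genes passed, 103 of the members and 6 others. Of the 12 members lost, 8 belonged to the 16. With any other H3.3WT library left out, 0 to 6 members were lost.

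**Figure D3:**
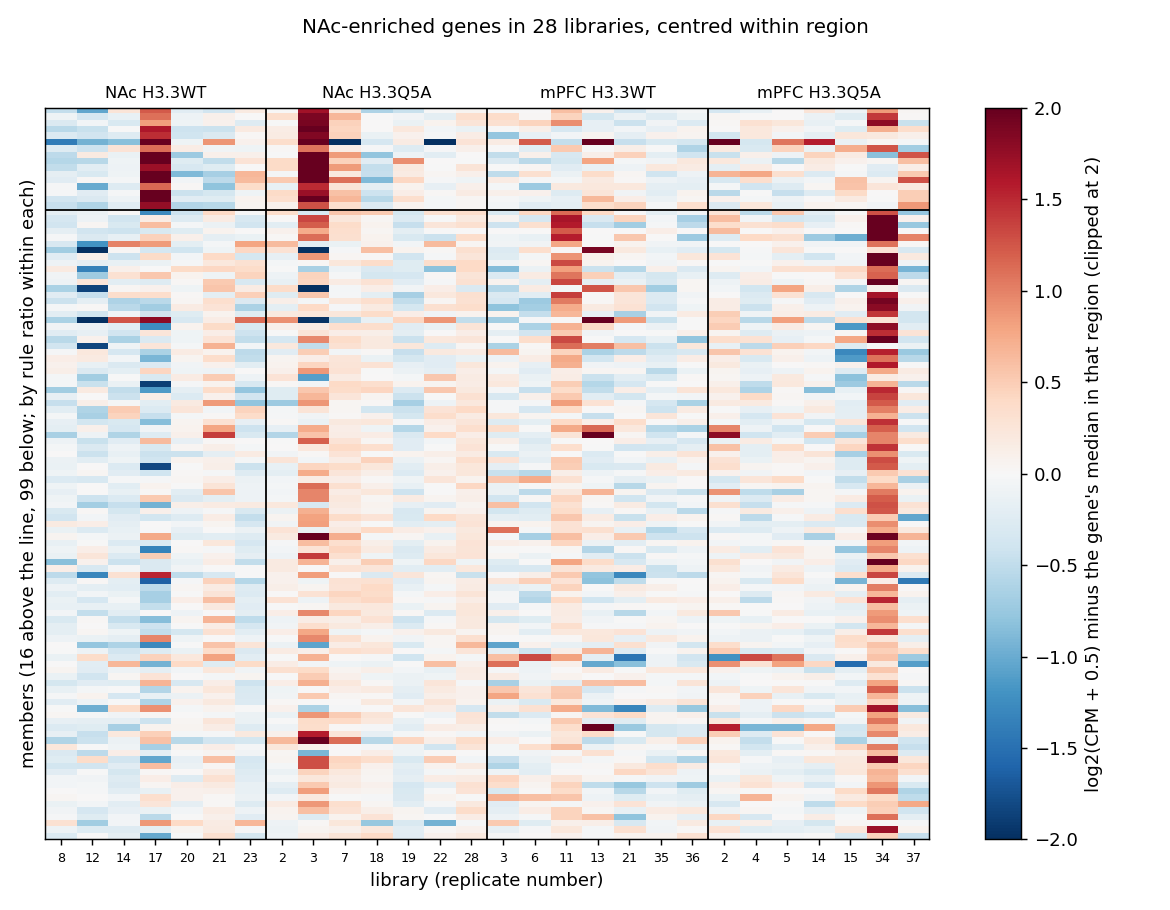
Log2(CPM + 0.5) of the 115 members (rows) in 28 libraries (columns), minus the gene's median over the 14 libraries of that region, with colours clipped at 2 either way. The 16 rows above the line are high in NAc H3.3WT 17 and NAc H3.3Q5A 3, and most rows below it are high in mPFC H3.3Q5A 34.

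The members varied more between libraries of a group than all genes at 10 CPM or more did. Their median CV in NAc H3.3WT was 25%, against 13.4% for all 10267 genes at 10 CPM or more there. In NAc H3.3Q5A, 114 members reached that level, with a median of 23.5% against 11% for all such genes. The 99 members had medians of 21% in both NAc groups, and the 16 had 81.7% and 79.5%. The 16 were picked for high values in NAc H3.3WT replicate 17 and NAc H3.3Q5A replicate 3, so this contrast follows from the split. The rule itself used NAc H3.3WT replicate 17, without which 12 members were lost, and this favours a high CV of the members in that group. The H3.3Q5A libraries were not used by the rule, but members that entered the list through replicate 17 are among those high in NAc H3.3Q5A replicate 3. The CVs in NAc were not recomputed without these 2 libraries. In mPFC H3.3WT the 44 members at 10 CPM or more had a median CV of 19.4%, against 9.35% for all genes at that level. In mPFC H3.3Q5A the 54 such members had a median of 35.8%, against 10.7% for all genes at that level. The median of the same 54 members was 15.5% without replicate 34. That library was part of the mean by which the 54 were counted, and the value for all genes was not recomputed without it.

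Single members ranged widely in this respect. The CV in NAc H3.3WT ran from 4.05% to 174%, and 17 members exceeded 50%. The steadiest, ENSRNOG00000004537, was at 58.9 to 66.0 CPM in the 7 NAc H3.3WT libraries. It was nevertheless at 58.7 to 119 CPM in NAc H3.3Q5A, with the highest value again in replicate 3.

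Levels of the members were correlated from library to library, in mPFC largely through 1 library. After the group means were removed, the median correlation between pairs of the 114 members at 10 CPM or more over the 14 NAc libraries was 0.277, against 0.128 between pairs of all 10282 such genes. In mPFC it was 0.519 between pairs of 50 members, against 0.0331 between pairs of 10400 genes, and it fell to 0.115 for the members without mPFC H3.3Q5A replicate 34. The NAc value was not recomputed without H3.3WT replicate 17 and H3.3Q5A replicate 3, so how far it rests on them is not known. Pairs share the same libraries and depth, so these values describe the libraries and carry no test. The relation was not uniform, since 64 members correlated above 0.5 with the mean of the others in NAc and 24 correlated negatively.

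In NAc, most members were fitted somewhat higher in the H3.3Q5A libraries, but no member passed the test for the virus. The mean log2 CPM over the members was 5.96 ± 0.17 (SD, n = 7) in the H3.3WT group, with a range of 5.73 to 6.19. In the H3.3Q5A group it was 6.18 ± 0.24, with a range of 5.91 to 6.65. The groups thus overlapped over much of their ranges, and replicate 3 held the highest value. The members' share of all counts, given above for H3.3WT, was 2.37 ± 0.90% with H3.3Q5A, with 4.35% in replicate 3 and 1.72 to 2.38% in the other 6.

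Of the 115 members 103 had a log2 fold change above 0, which held for 51.5% of all 15315 genes tested, and the median was 0.22 against 0.0054 for all genes. Fold changes of the members ran from −0.55 to 1.20. The edgeR quasi-likelihood test called 0 members at an adjusted p under 0.05, as it called 0% of all genes, and the lowest adjusted p among the members was 0.637. At an unadjusted p under 0.05, 21 members were higher, where 3.52% of all genes were, and 0 were lower, where 4.32% of all genes were. In no member did all 7 H3.3Q5A libraries lie above all 7 H3.3WT libraries, which happened in 0.064% of genes, or below them, which happened in 0.0768%. The comparison shares its H3.3WT libraries with the rule, and choosing genes for a high level there favours lower values in the other group.

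**Figure D4:**
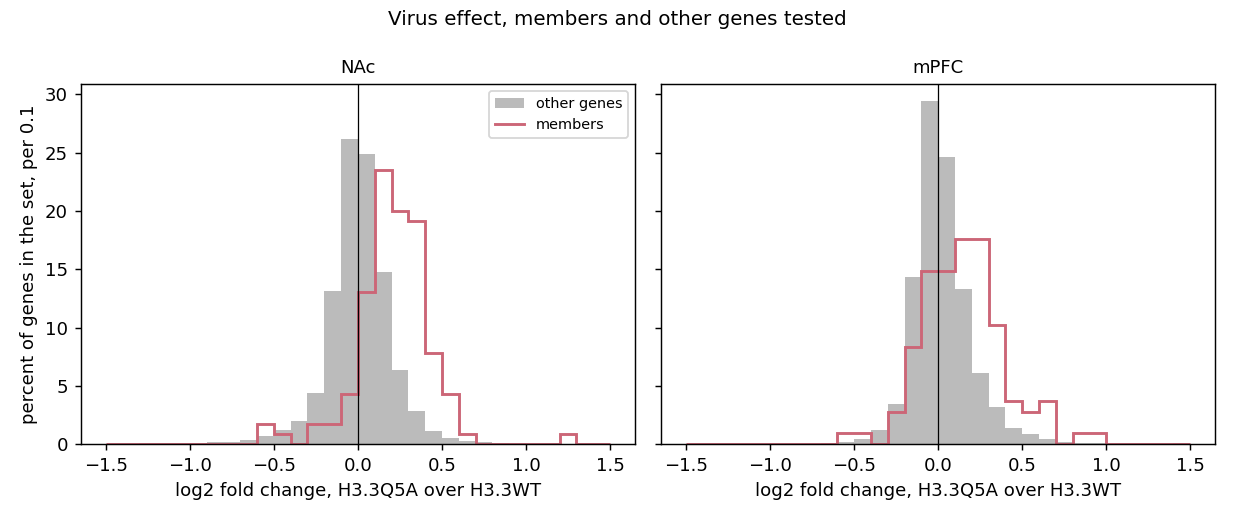
Percentage of genes per 0.1 of log2 fold change, H3.3Q5A over H3.3WT, for the members tested (red line) and for all other genes tested (grey) in NAc (left) and mPFC (right). Medians of the members are 0.22 in NAc and 0.14 in mPFC.

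The median over the members in NAc varied with the libraries that entered the fit. The median log2 fold change was 0.46 among P1 libraries alone, 3 against 3, and 0.0017 among P2 libraries alone, 4 against 4. With H3.3WT the member mean was 5.83 ± 0.09 log2 CPM (SD, n = 3) in P1 libraries and 6.07 ± 0.13 (n = 4) in P2 libraries. With H3.3Q5A it was 6.33 ± 0.29 in P1 and 6.07 ± 0.12 in P2, so the P2 groups were at the same level. At an unadjusted p under 0.05, 53 members were higher among P1 libraries, where 5.14% of all genes were. Among P2 libraries 2 members were higher, where 1.08% of genes were, and 4 were lower, where 1.35% were. The P1 libraries include H3.3Q5A replicate 3. The P2 libraries include H3.3WT replicate 17, which had the highest member mean of its group, 6.19 log2 CPM. Whether the virus effect differed between the marks was not tested. Without replicate 3 the median was 0.11 with 78 members above 0, and without replicate 17 it was 0.27 with 107 above 0. Without replicates 17 and 3 together it was 0.16 with 96 above 0. The 16 members had a median of 0.12 with a median SE of 0.53, and the other 99 a median of 0.23 with a median SE of 0.18, of which 90 were above 0. The count of 21 members at an unadjusted p under 0.05 ran from 9 without H3.3WT replicate 14, where 2.46% of all genes were higher, to 38 without H3.3WT replicate 21, where 6.82% were. It was 10 to 14 without H3.3WT replicates 8, 12 or 23 or H3.3Q5A replicates 3, 7, 18 or 28, with 2.12 to 3.31% of genes, and 34 without H3.3WT replicate 17, with 4.95% of genes. Without H3.3Q5A replicate 2 the count was 28, with 4.08% of genes, and without H3.3Q5A replicate 19 it was also 28, with 3.32%. Without H3.3WT replicate 20 it was 26, with 3.17% of genes, and without H3.3Q5A replicate 22 it was 21, with 2.91%. The share over all genes was thus not always higher where the count was higher.

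The mPFC-enriched genes had a lower mean with H3.3Q5A in the same libraries, with ranges that overlapped. Their mean log2 CPM in the H3.3WT group was 3.19 ± 0.59 (SD, n = 7) and in the H3.3Q5A group 2.72 ± 0.47, with ranges of 2.29 to 3.99 and 2.40 to 3.69. The library with the lowest member mean of each group also had the highest level of these genes, 3.99 in H3.3WT replicate 12 and 3.69 in H3.3Q5A replicate 19. Whether these genes have a part in the members' values was not tested.

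ENSRNOG00000052051 had the smallest unadjusted p of the members in NAc. It was at 19.5 to 23.9 CPM in H3.3WT with a median of 21.5 CPM, and at 21.6 to 31.2 CPM in H3.3Q5A with a median of 27.1 CPM. All but 1 of the H3.3Q5A libraries lay above the whole H3.3WT range, and the exception was replicate 3. The log2 fold change was 0.30 (SE 0.066, 95% confidence interval 0.16 to 0.44, edgeR adjusted p = 0.637). DESeq2 (adjusted p = 0.0388) and limma voom with sample quality weights (adjusted p = 0.0425) called it, among 9 and 4 genes called in all, while edgeR gave adjusted p-values from 0.125 to 0.895 when single libraries were left out.

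ENSRNOG00000014232 followed, at 29.5 to 40.7 CPM with H3.3WT and 37.2 to 50.1 CPM with H3.3Q5A. Its log2 fold change was 0.39 (SE 0.087, 95% confidence interval 0.20 to 0.57, edgeR adjusted p = 0.637), and the groups overlapped by H3.3WT replicate 21 and H3.3Q5A replicate 22.

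Of the 12 members with a fold change below 0, ENSRNOG00000049407 had the smallest p. It ranged over 5.67 to 17.7 CPM in the H3.3WT and 4.68 to 11.2 CPM in the H3.3Q5A libraries, and its log2 fold change was −0.54 (SE 0.26, 95% confidence interval −1.10 to 0.024, edgeR adjusted p = 0.651). ENSRNOG00000004179 was at 26.7 to 35.4 CPM in 6 H3.3WT libraries and 10.0 CPM in replicate 12, and at 14.8 to 35.1 CPM in the H3.3Q5A libraries. Its log2 fold change was −0.28 (SE 0.23, edgeR adjusted p = 0.738). In both genes the groups overlapped, and the fold change was above 0 among P1 libraries alone. ENSRNOG00000049407 met the rule only with H3.3WT replicate 17, its highest H3.3WT library, and had a log2 ratio of 1.90 without it. Its choice through that library favours a lower value with H3.3Q5A. Without that library its H3.3WT mean was 10.9 CPM, against 8.07 CPM with H3.3Q5A. How far the choice bears on its fold change was not tested.

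The precision of these estimates was lower for the members than for genes at large. The median SE of a member's log2 fold change in NAc was 0.19, against 0.12 for all genes tested. For 43 members, 37.4% of the list, the 95% confidence interval stayed inside 1.5-fold in both directions, against 77.5% of all genes. For 93 members it stayed inside 2-fold, a count that was not made over all genes.

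In mPFC the members were low, and 108 of the 115 passed the filter on low counts. The other 7 all had a log2 ratio above 4. No member passed the test for the virus there. The mean log2 CPM over all 115 was 3.0 ± 0.18 (SD, n = 7) in the H3.3WT group and 3.11 ± 0.37 in the H3.3Q5A group. Without replicate 34 the latter was 2.98 ± 0.08 (n = 6), and without replicate 11 the former was 2.94 ± 0.07 (n = 6). The groups overlapped over nearly the whole of their ranges once these libraries were set aside.

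The median log2 fold change of the 108 members was 0.14 against 0.0023 for all 15485 genes tested, with 78 above 0, which held for 50.7% of all genes. It was −0.05 with 42 above 0 when replicate 34 was left out and 0.0061 with 56 above 0 when replicates 34 and 11 were both left out. Among P1 libraries alone it was −0.07 and among P2 libraries alone, which include replicate 34, it was 0.34. edgeR called 0 members at an adjusted p under 0.05, as it called 0% of all genes, and the lowest adjusted p of a member was 0.626. DESeq2 and limma voom also called 0. At an unadjusted p under 0.05, 1 member was higher, where 4.27% of all genes were, and 0 were lower, where 3.62% were. In none of the 115 did all 7 H3.3Q5A libraries lie above all 7 H3.3WT libraries, as in 0.064% of genes, or below them, as in 0.0384%. Without replicate 34, 3 members were higher at an unadjusted p under 0.05, where 3.08% of all genes were, and 5 were lower, where 2.91% were. The rule chose genes with low levels in mPFC H3.3WT, which favours higher values in the other group.

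The member with the smallest p in mPFC, ENSRNOG00000022162, was at 8.65 to 14.5 CPM with H3.3WT. With H3.3Q5A it was at 9.88 to 17.3 CPM in 6 libraries and 31.9 CPM in replicate 34. Its log2 fold change was 0.56 (SE 0.23, 95% confidence interval 0.059 to 1.06, edgeR adjusted p = 0.626). ENSRNOG00000008356 was at 4.58 to 8.10 CPM with H3.3WT, at 6.48 to 8.66 CPM in 6 H3.3Q5A libraries and at 27.5 CPM in replicate 34, a log2 fold change of 0.63 (SE 0.30, edgeR adjusted p = 0.626). Replicate 34 was the highest mPFC library for both genes.

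Of the members with a fold change below 0 in mPFC, ENSRNOG00000019584 was at 1.22 to 5.26 CPM with H3.3WT and 1.34 to 3.20 CPM in the H3.3Q5A libraries, and its log2 fold change was −0.47 (SE 0.32, edgeR adjusted p = 0.651). ENSRNOG00000049556 was at 2.71 to 5.82 CPM and 2.46 to 4.83 CPM, a log2 fold change of −0.29 (SE 0.20, edgeR adjusted p = 0.654). The groups overlapped in both genes. For 44 of the 108 members, 40.7%, the 95% confidence interval stayed inside 1.5-fold, against 79.3% of all genes tested in mPFC.

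**Figure D5:**
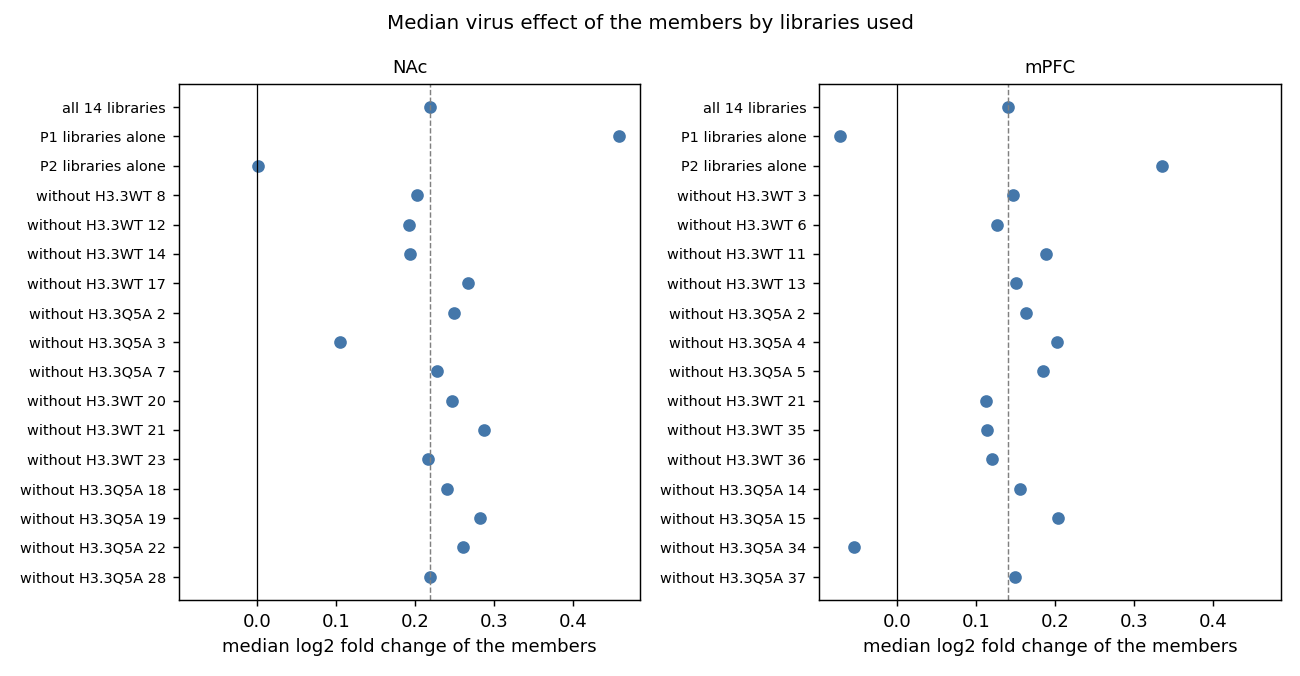
Median log2 fold change of the members, H3.3Q5A over H3.3WT, with all 14 libraries of a region, within each P mark and with each library left out, in NAc (left) and mPFC (right). The NAc median is 0.11 without H3.3Q5A 3 and 0.0017 among P2 libraries, and the mPFC median falls below 0 without H3.3Q5A 34 and among P1 libraries.

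The virus effects of the 2 regions, which came from separate libraries, were compared directly in a model of all 28. The edgeR test of the difference (NAc effect minus mPFC effect) called 0 of the 115 members, as it called 0% of all genes, with a lowest adjusted p of 0.904 among the members. At an unadjusted p under 0.05, 4 members had a difference above 0, where 2.58% of all 15635 genes did, and 0 had one below 0, where 2.68% did. DESeq2 and limma voom also called 0 members. The median difference was 0.093, with 75 members above 0, which held for 49.8% of all genes. Leaving out NAc H3.3Q5A replicate 3 gave −0.05, and leaving out mPFC H3.3Q5A replicate 34 gave 0.32. In the latter fit 23 members, 20% of the list, were above 0 at an unadjusted p under 0.05, where 2.67% of all genes were. Leaving out mPFC H3.3WT replicate 11 as well gave a median of 0.22. At that p 14 members were then above 0, where 2.27% of all genes were, and 1 was below 0, where 2.7% were. P1 libraries alone gave 0.70 and P2 libraries alone gave −0.47. At an unadjusted p under 0.05, 34 members were above 0 in P1 libraries, where 3.24% of all genes were, and 0 were below 0. In P2 libraries 0 members were above 0 at that p and 15 were below 0, where 4.53% of all genes were. Of the 108 members tested in both regions, 71 had fold changes above 0 in both, 2 had them below 0 in both, 28 were above 0 in NAc alone and 7 in mPFC alone. This split was not counted over all genes, of which 51.5% were above 0 in NAc and 50.7% in mPFC. It was also not recounted without mPFC H3.3Q5A replicate 34, where 42 of the 108 members were above 0 in mPFC.

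ENSRNOG00000049556 had the smallest p for this difference among the members. In NAc it was at 15.9 to 22.4 CPM in 6 H3.3WT libraries and 36.8 CPM in replicate 17. With H3.3Q5A it was at 16.6 to 53.8 CPM in 6 libraries and at 201 CPM in replicate 3, while its mPFC levels are given above. The difference was 1.604 (SE 0.59, edgeR adjusted p = 0.904) on the log2 scale and 0.91 without NAc H3.3Q5A replicate 3. On the other side ENSRNOG00000004179, with the NAc levels given above, was at 0.328 to 2.17 CPM in mPFC H3.3WT and 0.297 to 2.77 CPM in mPFC H3.3Q5A, a difference of −0.78 (SE 0.48, edgeR adjusted p = 0.904). Neither gene passed the test.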

How the data were processed

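Polyadenylated RNA was sequenced in 28 libraries, prepared with the Illumina TruSeq RNA V2 kit per the labels' protocols. The submitters' processing notes name build rn6 and, with no role stated, featureCounts 2.0.1, HISAT2 2.1.0 and DESeq2 1.6.3. The authors deposited raw counts per Ensembl gene. Every gene of the table has at least 10 counts in at least 14 libraries, and genes of lower count were not analysed here.

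Groups were read from sample titles. Levels are CPM by column sum. Tests used edgeR 4.0.16 in R 4.3.3 (quasi-likelihood, TMM, filterByExpr, the P mark as an additive term) over all genes, with Benjamini-Hochberg adjustment, and the fitting step was tested on simulated data. DESeq2 1.42.0 and limma 3.58.1 were alternatives. No label ties libraries to animals, so p-values measure the spread between libraries. The kit does not mark strand, so reads of overlapping genes cannot be told apart.

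The members, lists and tests were chosen with earlier results of these data known. IDs were named by level, ratio, CV, excess in mPFC H3.3Q5A replicate 34 and smallest p-values, at most 2 each way. Lists of symbols, cell type markers and promoter motifs could not be applied to unpaired IDs.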

Additional observations from a re-analysis of the deposited data

Results flagged for a closer look

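In groups of 7 libraries, the highest or lowest library was compared with its neighbour by Dixon's ratio of gap to range, and 11 of 30 such groups passed the 95% critical value, where chance passes about 1 in 20 groups taken without regard to their values. That rate does not apply here, since many of the groups share a library and several genes were named for their spread or for effects in the same libraries.

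The mean log2 CPM of the members was 3.94 in replicate 34 of mPFC H3.3Q5A, where the following library was at 3.12, and 3.37 in replicate 11 of mPFC H3.3WT, where it was at 3.08. The members' share of counts was 0.486% in replicate 34 (next 0.275%) and 0.322% in replicate 11 (next 0.271%). In NAc this share was 4.35% in H3.3Q5A replicate 3 (next 2.38%) and 2.77% in H3.3WT replicate 17 (next 2.09%).

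Among named members, ENSRNOG00000035476 was at 112 CPM in NAc H3.3WT replicate 17, where the next library was at 9.73 CPM. ENSRNOG00000028404 was at 4878 CPM in the same library, where the next was at 2897 CPM. ENSRNOG00000008356 was at 27.5 CPM and ENSRNOG00000022162 at 31.9 CPM in mPFC H3.3Q5A replicate 34. ENSRNOG00000004179 was at 10.0 CPM in NAc H3.3WT replicate 12, where the next lowest library was at 26.7 CPM. The 30 groups did not cover every group of the named members, so these flags are not a full list. Not among them, for example, is ENSRNOG00000028404 at 10151 CPM in NAc H3.3Q5A replicate 3, where the next library was at 3754 CPM. Nor is ENSRNOG00000035476 at 118 CPM in that library, where the next was at 15.8 CPM.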

How the results depend on the processing

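Of 212 counts and medians recomputed under alternatives, 205 stayed within 1.5 times the count, or within the pooled SD of the member mean between libraries for a median (0.20 in NAc, 0.29 in mPFC and 0.25 for the difference between regions, log2), and 7 did not. These bounds are wide beside the medians. Inside them the mPFC median fell below 0 without H3.3Q5A replicate 34 (−0.05) and in P1 libraries (−0.07). The median difference between regions fell below 0 without NAc H3.3Q5A replicate 3 (−0.05), without both NAc libraries that stood apart (−0.04) and under a ratio bound of 3 (−0.0094). The number of members higher in NAc among H3.3Q5A libraries was 113 to 115 with single libraries left out and 111 with DESeq2, which gave the other 4 no adjusted p. It was 41 under a ratio bound of 3, where the list holds 41 genes. In NAc the virus call count went from 0 to 1 with DESeq2, which called 9 of 15315 genes, and to 1 with limma voom, which called 4. The median virus effect in NAc was 0.46 in P1 and 0.0017 in P2 libraries, and 0.11 to 0.29 with single libraries left out. In mPFC it was −0.05 to 0.20 with single libraries left out. The median difference between regions was 0.70 in P1 and −0.47 in P2 libraries, and −0.05 to 0.32 with single libraries left out. Among P1 libraries ENSRNOG00000049407 and ENSRNOG00000004179 turned to log2 fold changes of 0.21 and 0.024 in NAc. The cause of these changes was not tested. Scaling by library size alone, leaving out the pairs of libraries that stood apart and choosing members without NAc H3.3WT replicate 17 were added after the data were seen. No paired analysis was possible because the groups compared share fewer than 2 replicate numbers. Counts were low for some members in mPFC, where 12 averaged under 1 CPM with H3.3WT and 7 were not tested.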
